A study of Homo sapiens with 4 samples.

Results

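The genes described here are the urea transporter genes of the SLC14 family and a group of aquaporin genes, SLC14A1, SLC14A2, AQP1, AQP3, AQP4, AQP7, AQP9 and AQP11, which are 8 of the 57879 genes listed in the files. They were taken by gene symbol, and the list was chosen by their values in these same libraries, in which SLC14A1 was among the genes with the largest rise, so the difference between the groups is given for these 8 genes as a description without a test. The RNAseq compared derivatives of T24, a line from a human bladder carcinoma, with 2 libraries of cells carrying the empty vector (EV, labelled control) and 2 of cells expressing the catalytic domain of TET1 (TET1-CD). Both groups were stable puromycin-selected lentiviral cells grown in RPMI with 10% FCS, and no other allele or agent is given for either, although the source label calls all 4 induced without naming an inducer. Whether the libraries came from separate cultures is not stated in the sources used here, so the p-values below measure the spread between these libraries, which may be technical. In bulk RNA, fewer expressing cells and less RNA per cell cannot be told apart.

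Urea transporters are membrane channels through which urea crosses cells down its gradient. SLC14A1 encodes UT-B, which is carried by urothelium, by endothelium of the vasa recta and by red cells, where it bears the Kidd blood group antigens, and SLC14A2 encodes the UT-A forms of the renal tubule. Aquaporins are water channels. AQP1 and AQP4 pass water, AQP3, AQP7 and AQP9 also pass glycerol and are called aquaglyceroporins, and AQP11 lies mainly on intracellular membranes. TET1 oxidizes 5-methylcytosine, mostly at CpG sites, and the catalytic domain carries this activity. In these libraries SLC14A1 went from no counts in EV cells to a low level in TET1-CD cells, AQP11 and AQP3 had few counts in both groups, and the other 5 genes were at or near 0 throughout.

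The fragments assigned to listed transcripts numbered 17442143 to 20295266 per library, with overlapping groups. Mitochondrial genes took 2.91% and 3.39% of the EV counts and 2.49% and 2.73% of the TET1-CD counts, so that both EV libraries were above both TET1-CD libraries, and the part of this in the results was not tested. TET1 itself had 111 and 83 EV counts against 2939 and 3310 TET1-CD counts (32.5-fold, edgeR's quasi-likelihood test, adjusted p = 4.9e-10), and fragments of the cloned domain and of the endogenous gene are not separated in the files. By this test 10.0% of the 14573 genes tested were higher in TET1-CD cells at an adjusted p under 0.05 and 9.61% were lower. With a fold change of at least 2 as well, 2.72% were higher and 1.04% lower. In 61.0% of the genes tested the normalized counts of the groups did not overlap. The T24 label was checked against urothelial markers, several of which were absent. Of 14 urothelial markers 7 had at most 3 counts in every library, KRT5 and KRT20 were at 0, and 6 were tested. Among these GATA3, FOXA1 and KRT7 were higher and ELF3 was lower in TET1-CD cells, with adjusted p-values from edgeR of 0.0163, 0.0204, 0.00175 and 0.0361. The summed level of the urothelial list was 966 and 978 CPM in EV against 1230 and 1219 CPM in TET1-CD, mostly from KRT7. Whether these markers bear on the SLC14A1 value was not tested.

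Of the 8 genes, 3 passed the filter on low counts. SLC14A1 passed through its TET1-CD libraries only and AQP3 through its EV libraries only, so that both had to differ to some degree, and AQP11 passed in all. A single gene of the 8 (SLC14A1) was called higher, at either threshold, and 0 were called lower. The groups did not overlap for SLC14A1 and AQP3, which are 2 of the 3 tested. Since the list was selected on this contrast, nothing is read from these counts beside the shares of all genes given above. The other 5 genes had at most 3 counts in every library.

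**Figure D1:**
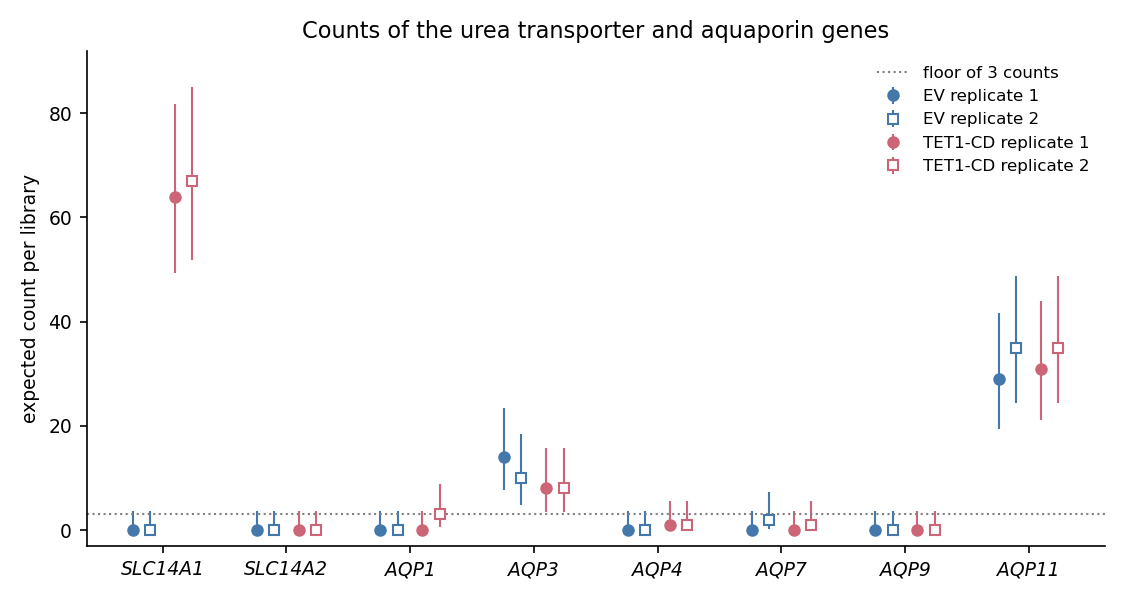
Expected counts of the 8 genes in each EV (blue) and TET1-CD (red) library, with exact 95% Poisson intervals as bars and the floor of 3 counts as a dotted line. SLC14A1 is at 0 in both EV libraries and at 64 and 67 in the TET1-CD libraries, while AQP11 overlaps between the groups and 5 genes stay at or under the floor.

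SLC14A1 (ENSG00000141469) occupies positions 43304092 to 43332485 of chromosome 18 (GRCh37, plus strand). It had 0 counts in both EV libraries and 64 and 67 counts in the TET1-CD libraries. No fragment was assigned to it in EV cells, whereas both TET1-CD libraries gave nearly the same count. The exact Poisson 95% interval was 0 to 3.69 for each EV count, 49.3 to 81.7 for TET1-CD replicate 1 and 51.9 to 85.1 for replicate 2, which covers counting error only. After TMM normalization the TET1-CD mean was 66.0 ± 3.04 counts (SD, n = 2). Against a floor of 3 counts per library, set in place of a count of 0, SLC14A1 was 22.0-fold higher in the TET1-CD libraries (log2 bound 4.46). The floor lies under the upper limit of 3.69, and the counting error of the TET1-CD libraries is left out. The bound is therefore not a 95% limit. Under other scalings and with each library left out the bound ran from 20.4-fold to 23.8-fold.

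The level reached was low. The deposited FPKM (fragments per kilobase of transcript per 1000000 fragments), summed over transcripts, was 1.87 and 1.74 in the TET1-CD libraries, a mean of 1.81 ± 0.0919 (SD, n = 2), and SLC14A1 was listed at 0 in EV. A gene tested in TET1-CD cells had a median of 9.67 FPKM, and SLC14A1 stood at percentile 21.9 of these genes. Part of the summed FPKM came from short transcripts with few counts. ENST00000591943 gave 0.59 and 0.29 FPKM from 6.14 and 3.37 counts, and ENST00000321925, with most counts, gave 0.66 and 0.60. Among the genes tested, 15 were at 0 in both EV libraries, and 3 of these had more counts than SLC14A1 in both TET1-CD libraries. Genes at 0 in EV pass the filter through TET1-CD libraries only, and SLC14A1 was chosen on this contrast. These counts are thus descriptions, and they leave out genes with a few EV counts and a similar rise.

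Since TET1 acts at CpG sites, the sequences at the transcription starts of SLC14A1 are shown here beside that of AQP3. DNA methylation was not measured in these libraries, so the sequences give only where CpG sites lie. The windows run from 250 bases before to 50 bases after a RefSeq start on GRCh38.p14, a different build from the GRCh37 coordinates of the files. Every CpG site is in capitals, and each window is written 5′ to 3′ on the strand of its gene. The 2 windows of SLC14A1 are given because this is the gene of the 8 with the large difference between the groups, and the window of AQP3 because it held most CpG sites among the windows of these genes.
SLC14A1, upstream start, chr18:45723931-45724230 (plus strand): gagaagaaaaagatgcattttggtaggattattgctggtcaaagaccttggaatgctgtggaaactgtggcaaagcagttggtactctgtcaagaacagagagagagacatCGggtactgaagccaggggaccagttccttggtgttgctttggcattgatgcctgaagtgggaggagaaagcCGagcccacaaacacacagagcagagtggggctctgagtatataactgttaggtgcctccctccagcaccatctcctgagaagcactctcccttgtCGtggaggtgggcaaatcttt
SLC14A1, downstream start, chr18:45726703-45727002 (plus strand): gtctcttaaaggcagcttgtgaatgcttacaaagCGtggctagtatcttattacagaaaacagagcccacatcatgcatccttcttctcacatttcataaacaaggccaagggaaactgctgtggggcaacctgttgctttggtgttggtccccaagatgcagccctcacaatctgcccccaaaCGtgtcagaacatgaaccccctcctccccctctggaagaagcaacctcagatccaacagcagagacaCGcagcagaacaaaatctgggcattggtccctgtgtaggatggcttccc
AQP3, chr9:33447544-33447843 (minus strand): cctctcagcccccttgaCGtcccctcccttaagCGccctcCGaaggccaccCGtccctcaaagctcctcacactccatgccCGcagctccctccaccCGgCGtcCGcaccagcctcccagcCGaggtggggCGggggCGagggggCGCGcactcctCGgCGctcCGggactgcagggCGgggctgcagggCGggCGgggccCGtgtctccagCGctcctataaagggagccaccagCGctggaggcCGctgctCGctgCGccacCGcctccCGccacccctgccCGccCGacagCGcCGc
Each SLC14A1 window held 3 CpG sites, and 24.5% of the 35114 RefSeq windows of 300 bases held as few. The AQP3 window held 31. The median of all windows was 14, and 81.1% of them held 31 or fewer. The letters TATAA were searched on both strands, and 20.4% of all windows held them. They were found 27 bases before the upstream start of SLC14A1 and 32 bases before that of AQP3, and not in the downstream SLC14A1 window. The windows of AQP1 (30 bases before the start), AQP4 (41 and 32 bases among others) and SLC14A2 also held them. Those of AQP7 and AQP9 did not. The RefSeq table held 12 windows for 7 of the 8 genes. Between 1 and 10 CpG sites were found in the 11 windows other than that of AQP3.

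**Figure D2:**
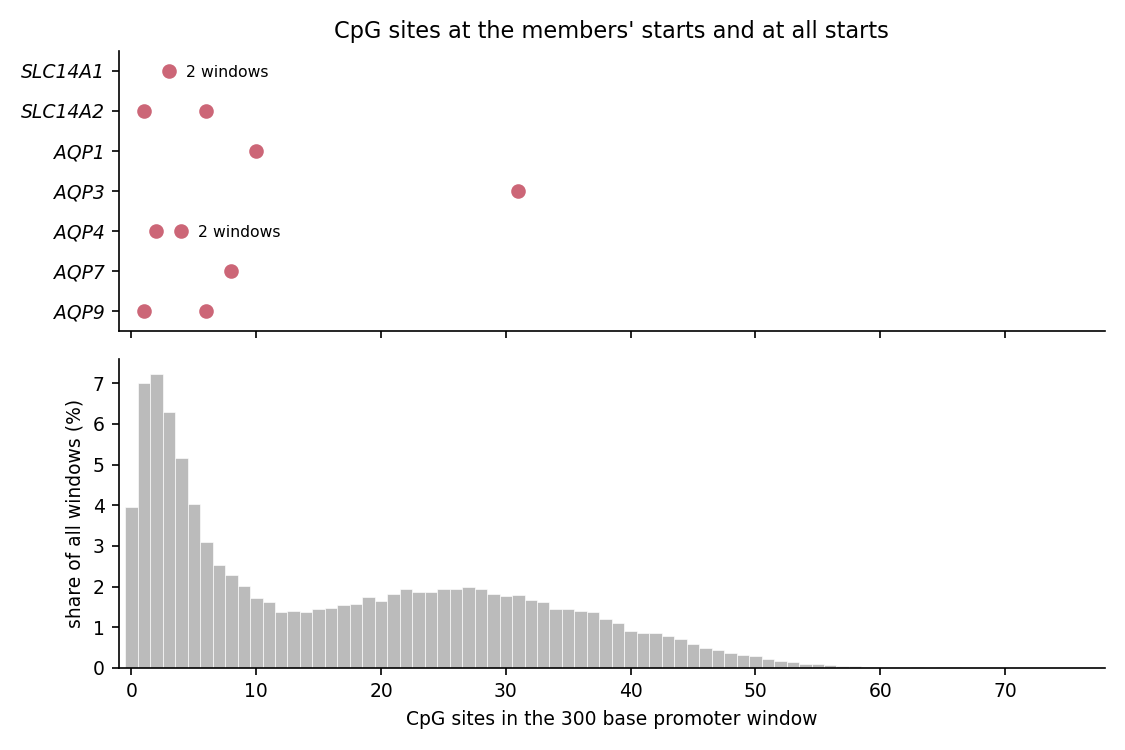
CpG sites in the 300 base window around each RefSeq start, for 7 of the 8 genes (top, a point per window) and for all 35114 windows (bottom, share of windows in percent). The SLC14A1 windows sit at 3 sites, in the low peak of the distribution, and the AQP3 window at 31 sits in its broad upper part.

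Matched to GRCh37, both SLC14A1 windows occurred once on chromosome 18. The upstream RefSeq start fell at position 43304146, which is the annotated start of transcript ENST00000321925 and lies 54 bases inside the SLC14A1 row of the files. The downstream start lay at position 43306918. Over a wider region of 2001 bases centred on the 5′ end of the gene in the files, SLC14A1 had 12 CpG sites, with 0.15 times the number that its C and G content would give by chance pairing. Of 19368 genes with such a region (protein-coding genes), 5.03% had as low a ratio, and the median ratio was 0.61. AQP9 (0.18), AQP1 (0.21), AQP4 (0.23), AQP7 (0.24) and SLC14A2 (0.26) were low on the same measure, AQP3 had 0.45, and AQP11, at 0.80, was above the median. SLC14A1 therefore had the most CpG-poor 5′ end of the 8 genes as listed in the files on this measure, and AQP11 the most CpG-rich. The listed 5′ end need not be the start of the main transcript. For AQP1 it was 30893010, while the protein-coding transcript ENST00000311813 is annotated from 30951468. For SLC14A2 it was 42792960, while the protein-coding transcript ENST00000255226 is annotated from 43195441. The ratios of AQP1 and SLC14A2 do not describe these later starts.

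The files list 20 SLC14A1 transcripts, and 5 of them had fragments in TET1-CD cells. ENST00000321925, a protein-coding transcript of 10 exons and 3917 spliced bases with a long last exon, held 46.21 and 46.52 of the estimated counts, with an FPKM of 0.66 and 0.60. After rounding, this was 71.9% (46 of 64 counts, Wilson 95% interval 59.9% to 81.4%) in TET1-CD replicate 1 and 70.1% (47 of 67, 58.3% to 79.8%) in replicate 2. ENST00000415427, with 11 exons and 1554 spliced bases, held 8.73 and 12.15 counts, an FPKM of 0.32 and 0.40. It shares the first 2 exons with ENST00000321925 to within a few bases, carries 1 additional exon and stops early in the last. Both of the larger transcripts are thus annotated from the upstream start shown above, to within a few bases.

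The remaining counts were spread over short transcripts. ENST00000591943 had 6.14 and 3.37 counts and has no match in the annotation used here (GENCODE release 44 on GRCh37). ENST00000590246, of 561 spliced bases, had 1.13 and 3.38 counts. ENST00000591541, which is annotated as a retained intron, had 1.78 and 1.57. Each of these counts is within a few fragments of 0. The division of fragments between transcripts is the estimate of the authors' quantifier, and the intervals do not include its error.

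Grouped by annotated start, 9 of the 20 transcripts lie within 100 bases of the start of ENST00000321925. The 2 with fragments held 55 of 64 counts (85.9%, Wilson 95% interval 75.4% to 92.4%) and 59 of 67 counts (88.1%, 78.2% to 93.8%). These shares follow the transcripts to which the quantifier assigned fragments. Fragments at the starts themselves were not counted, so the shares do not show which start was in use. The intervals of the TET1-CD libraries overlapped. Transcripts annotated as protein-coding held 87.5% and 92.5% of the counts. Transcript ENST00000436407, which starts at 43306690 near the downstream RefSeq start, was listed at 0 in all 4 libraries. The antisense gene RP11-116O18.3, which spans the 5′ part of SLC14A1 on the minus strand, was also at 0 in all 4 libraries.

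**Figure D3:**
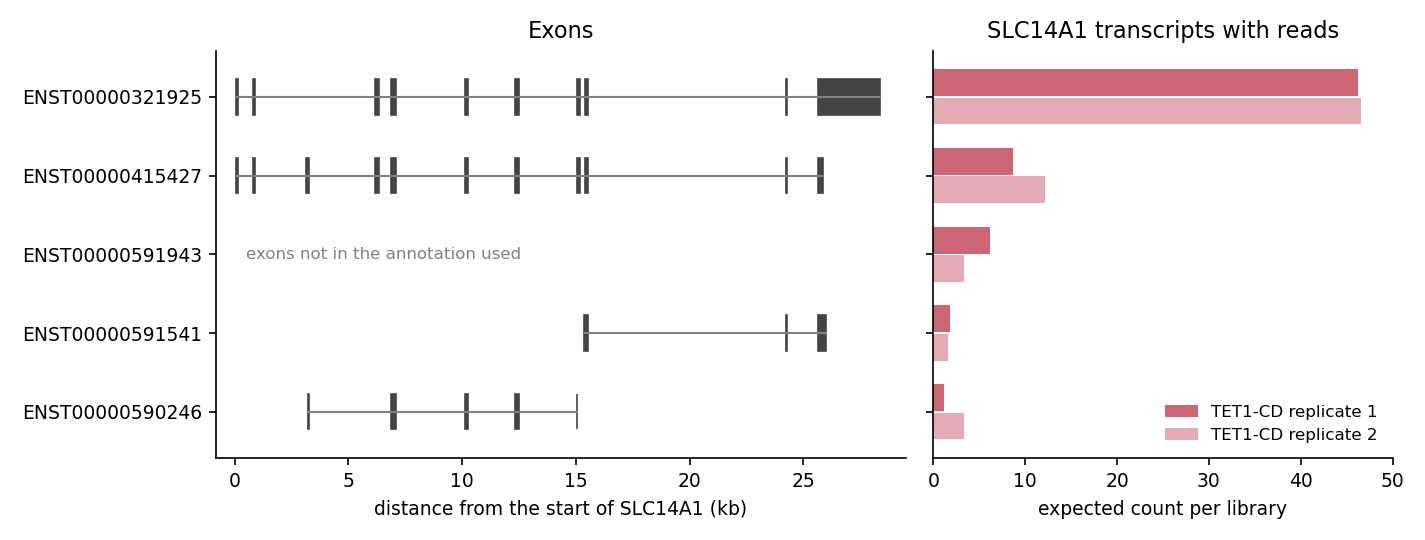
Exons of the SLC14A1 transcripts with fragments, as distance from the start of the gene in the files (left, kb), and their expected counts in each TET1-CD library (right). ENST00000321925, with its long last exon, holds 46.21 and 46.52 counts and the other 4 transcripts hold at most 12.15, and all 20 transcripts are at 0 in both EV libraries.

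SLC14A2 (ENSG00000132874), the renal urea transporter gene, is the neighbour of SLC14A1 on the same strand, from 42792960 to 43263072, and 41020 bases separate its end from the start of SLC14A1. It had 0 counts in all 4 libraries over its 4 listed transcripts. Reads of SLC14A1 were therefore not accompanied by reads of its closest paralog. The exact Poisson interval of each SLC14A2 count of 0 reached up to 3.69 counts, so a level of a few fragments per library remains possible. Markers of other tissues that carry urea transporters or aquaporins were mostly near 0. Of 7 erythroid markers 5 were at 0 in all libraries, HBB had 0 and 0 EV counts against 0 and 2 TET1-CD counts, and the list summed to 5.14 and 7.57 CPM in EV against 4.10 and 4.69 CPM in TET1-CD, mostly from EPOR. Of 5 renal markers 3 were at 0 in all libraries (UMOD, SLC12A1 and AQP2), and the list summed to at most 0.12 CPM in any library. Of 5 endothelial markers 4 were listed. They summed to 0.69 and 1.16 CPM in EV against 0.91 and 1.17 CPM in TET1-CD, and TEK was at 0. CDH5, the single one tested, had 9 and 10 EV counts against 13 and 22 TET1-CD counts (edgeR adjusted p = 0.221). VWF (3 and 6 EV against 2 and 0 TET1-CD counts) and KDR (2 and 4 against 1 and 1) lay the other way and were not tested.

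AQP11 (ENSG00000178301, chromosome 11, 77300436 to 77321400, plus strand), the intracellular aquaporin, had most counts of the 6 aquaporins. There were 29 and 35 EV counts against 31 and 35 TET1-CD counts, and the groups overlapped. Normalized counts averaged 32.3 ± 7.78 (EV, SD, n = 2) and 33.2 ± 0.244 (TET1-CD, SD, n = 2), and the log2 fold change was 0.05 ± 0.30 (standard error, SE). Without EV replicate 1 the log2 fold change was -0.20, and without EV replicate 2 it was 0.31, so that its sign rested on single EV libraries. The 95% interval of the log2 fold change ran from -0.53 to 0.63, so a difference in either direction within it remains possible. AQP11 lies within the span of CLNS1A on the opposite strand, a gene with 1691 to 1983 counts in TET1-CD and 1923 and 2220 in EV cells. Whether the counting used strand is not stated, so the low AQP11 counts are uncertain.

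AQP3 (ENSG00000165272, chromosome 9, 33441152 to 33447609, minus strand), an aquaglyceroporin of epithelia that is carried by urothelium, had 14 and 10 EV counts against 8 and 8 TET1-CD counts. Both EV libraries were above both TET1-CD libraries, by a few fragments. Normalized counts averaged 11.9 ± 1.51 (EV, SD, n = 2) and 8.07 ± 0.632 (TET1-CD, SD, n = 2), and the log2 fold change was -0.56 ± 0.50 (SE). The exact Poisson 95% intervals of the counts, 7.65 to 23.5 and 4.80 to 18.4 in EV and 3.45 to 15.8 in each TET1-CD library, overlapped. Part of the highest value came from a transcript annotated as a retained intron. ENST00000494313 held 4.88 of the 14 counts in EV replicate 1, and the protein-coding transcript ENST00000297991 held 9.12 and 10.0 counts in EV against 7.99 and 8.0 in TET1-CD.

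On the length-scaled level, AQP11 stood first in EV cells with 0.66 and 0.93 FPKM, followed by AQP3 with 0.40 and 0.31. In TET1-CD cells SLC14A1 stood first, followed by AQP11 with 0.86 in both libraries and AQP3 with 0.25 and 0.22. The ranges of these neighbours in the order did not overlap in either group. All of them lay in the low range of expressed genes, with AQP11 at percentiles 12.7 in EV and 12.8 in TET1-CD cells and AQP3 at 5.5 and 2.2. The first place of SLC14A1 rests on the sum over transcripts, to which short ones with few counts added. ENST00000321925 alone had 0.66 and 0.60 FPKM in TET1-CD cells, against 0.77 and 0.79 for the protein-coding AQP11 transcript ENST00000313578.

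The remaining aquaporins of the list were at or under the floor of 3 counts, so no fold change is given. AQP1, the water channel of red cells and endothelium, had 0 and 0 EV counts against 0 and 3 TET1-CD counts. Its span overlaps that of FAM188B on the same strand, which had 42 to 77 counts per library. The AQP1 counts were assigned to transcripts annotated from 30951670 and 30952906, past the end of FAM188B at 30932002. AQP4, the water channel of astrocytes, had 0 and 0 EV counts against 1 and 1 TET1-CD counts. AQP7, the glycerol channel of adipocytes, had 0 and 2 EV counts against 0 and 1 TET1-CD counts. The pseudogenes AQP7P1 and AQP7P2 had at most 2 counts in any library and AQP7P3 and AQP7P4 had 0, and since these are near copies the AQP7 counts are uncertain. AQP9, the glycerol and urea permeable aquaporin of liver, was at 0 in all 4 libraries. For these 4 genes a small difference between the groups could not be detected at this depth, and none of them rose to the counts of SLC14A1.

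The 8 aquaporin genes outside the list were also low, and 7 of them had at most 3 counts in every library. MIP, the lens aquaporin also called AQP0, had 6 and 3 EV counts against 4 and 5 TET1-CD counts. AQP6 had 2 and 1 EV counts against 0 and 1 TET1-CD counts, AQP12B had 1 count in EV replicate 1 and 0 elsewhere, and AQP2, AQP5, AQP8, AQP10 and AQP12A were at 0. None of the 8 passed the filter, so 0 were tested. AQP11 and AQP3 were thus the 2 aquaporin genes with counts for a test in T24 cells, in a family of 14 genes counted here.

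Within 1000000 bases of SLC14A1 on chromosome 18, the files list 24 other genes, of which 8 were tested and 16 had at most 3 counts in every library. By edgeR's quasi-likelihood test 0 were called higher or lower, 0 had an unadjusted p under 0.05, and DESeq2 also called 0. Of all genes tested 10.0% were called higher and 9.61% lower. With 8 genes tested, a count of 0 is near these shares, and nothing is read from it. SIGLEC15, the nearest of the tested genes, had 334 and 315 EV counts against 305 and 341 TET1-CD counts (log2 fold change 0.01, SE 0.10, edgeR adjusted p = 0.98). EPG5 (-0.05), PSTPIP2 (0.02), ATP5A1 (0.08), HAUS1 (0.16) and C18orf25 (0.09) had small log2 fold changes, with adjusted p-values from edgeR of 0.209 to 0.899. SETBP1 (-0.61, SE 0.43) and RNF165 (-0.33, SE 0.50) had at most 21 counts in any library. Without EV replicate 2, EPG5 alone was called, with a log2 fold change of -0.18 (edgeR adjusted p = 0.0292). The median log2 fold change of the 8 neighbours was 0.02 on the log2 scale, against 0.001 for all genes tested.

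**Figure D4:**
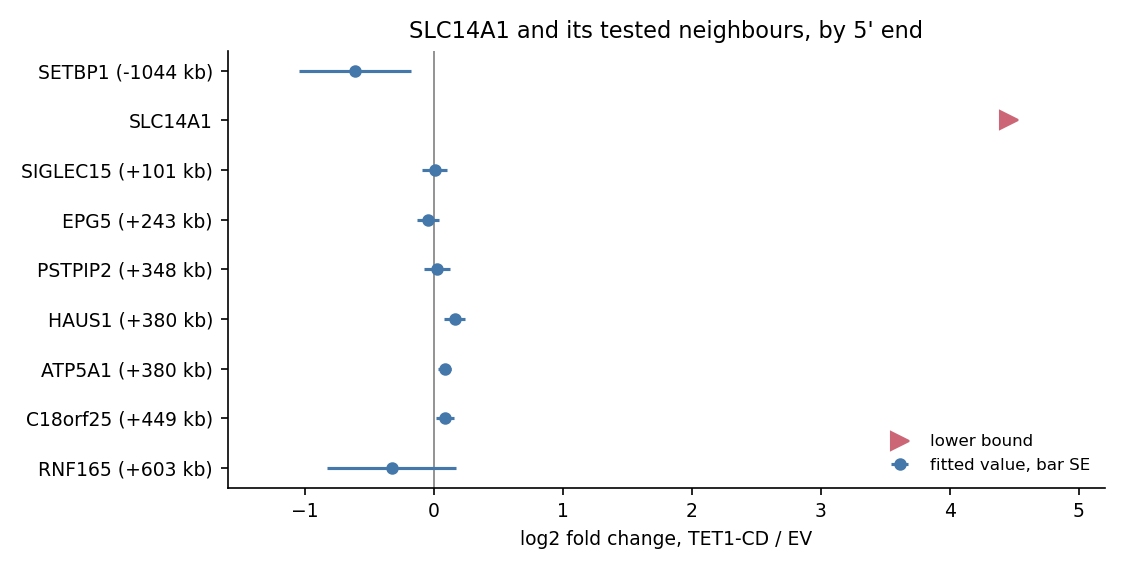
Log2 fold change between TET1-CD and EV cells for SLC14A1 (triangle, lower bound) and the 8 tested genes within 1000000 bases (circles, bars are standard errors), ordered by the position of the 5′ end relative to the start of SLC14A1 in kb. SLC14A1 stands at 4.46, and the neighbours lie between -0.61 and 0.16.

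The 5 protein-coding genes whose pattern over the 4 libraries was nearest to that of SLC14A1, by Euclidean distance in log2(CPM + 0.5), were ZNF469 (0.228), NPTX1 (0.34), SERPINB9 (0.539), SUSD2 (0.593) and COL5A1 (0.634). ZNF469, a zinc finger gene, had 1 and 1 EV counts against 67 and 71 TET1-CD counts. NPTX1, a neuronal pentraxin, had 0 and 2 EV counts against 65 and 76 TET1-CD counts. The inhibitor of granzyme B, SERPINB9, had 3 and 2 EV counts against 72 and 78 TET1-CD counts. These patterns had the same shape as that of SLC14A1, near 0 in EV and 60 to 78 counts in TET1-CD cells for 4 of the 5 genes, and 44 and 48 counts for COL5A1, a fibrillar collagen chain. SUSD2 had 3 and 3 EV counts and COL5A1 had 1 and 0. None of the 5 lies on chromosome 18. The 300 base RefSeq windows of SERPINB9 and COL5A1 held 35 to 37 CpG sites, against 3 for SLC14A1. No window was available for ZNF469, NPTX1 and SUSD2. As the genes were picked for likeness over 4 libraries, the distances are descriptions.

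The genes around urea and water transport were then counted in 4 lists, in each of which single genes passed the test in edgeR with adjustment over all genes tested. In the list of the urea cycle and arginine hydrolysis, 8 of 11 genes were tested, 1 was higher and 0 were lower, with a median log2 fold change of 0.12. AGMAT, which encodes agmatinase, an enzyme family that releases urea from agmatine, had 10 and 13 EV counts against 33 and 52 TET1-CD counts, a difference of 1.88 ± 0.37 (SE) on the log2 scale with an adjusted p of 0.00712 by edgeR. Its call was lost without TET1-CD replicate 2, and its adjusted p ran from 5.43e-06 to 0.119 over the alternatives. The enzyme that forms argininosuccinate, ASS1, had 347 and 382 EV counts against 453 and 476 TET1-CD counts (0.36, SE 0.12, edgeR adjusted p = 0.0626). ARG1 and OTC, which define the hepatic urea cycle, were at 0 in all libraries, as was SLC25A2. ARG2, the mitochondrial arginase, had 82 and 74 EV counts against 77 and 97 TET1-CD counts, and CPS1, the entry enzyme of the cycle, had 589 and 410 in EV against 427 and 449 in TET1-CD.

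In the list of the osmotic response and organic osmolytes, 13 rows of 14 were tested, 2 were higher and 3 lower, with a median log2 fold change of 0.06. AKR1B1, the aldose reductase that makes sorbitol, had 25741 and 30498 EV counts against 14176 and 17373 TET1-CD counts, and fell by 0.84 on the log2 scale (SE 0.12, edgeR adjusted p = 0.00134). SLC38A2, an amino acid transporter induced by hypertonicity, fell by 0.25 (SE 0.05, edgeR adjusted p = 0.00983), and the kinase gene OXSR1, which the naming rule leaves out and which is given to complete the count, fell by 0.20. LRRC8A, a subunit of the volume-regulated anion channel, rose by 0.27 (SE 0.05, edgeR adjusted p = 0.00689), and HSPA4L, a chaperone gene, rose by 0.30 (SE 0.06, edgeR adjusted p = 0.00784). The genes called moved in both directions. SLC5A3, the inositol transporter, is listed under 2 gene identifiers between which its counts are divided unevenly, and the sums were 2081 and 1524 in EV against 1518 and 1647 in TET1-CD.

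In the list of vasopressin, cAMP and water channel traffic, 15 of 17 genes were tested, 2 were higher and 2 lower, with a median of 0.01. MYO5B, a motor of recycling endosomes, had 213 and 198 EV counts against 311 and 330 TET1-CD counts, and rose by 0.66 on the log2 scale (SE 0.11, edgeR adjusted p = 0.00256). RAB11A, a small GTPase of the same compartment, fell by 0.28 (SE 0.06, edgeR adjusted p = 0.00901). The adenylyl cyclase genes ADCY9 and ADCY6 moved in opposite directions, by 0.34 and -0.25 on the log2 scale (adjusted p = 0.0106 and 0.0296 from edgeR). The vasopressin receptor genes did not pass the filter. AVPR2 had 1 and 2 EV counts against 3 and 7 TET1-CD counts, and AVPR1A was at 0.

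In the list of glycerol metabolism, 9 of 10 genes were tested, 1 was higher and 1 lower, with a median of 0.04. MGLL, which encodes monoglyceride lipase, the enzyme that frees glycerol from monoacylglycerol, had 6733 and 5698 EV counts against 4222 and 4716 TET1-CD counts, and fell by 0.46 on the log2 scale (SE 0.05, edgeR adjusted p = 2.55e-04). ABHD5, the activator of adipose triglyceride lipase, rose by 0.31 (SE 0.10, edgeR adjusted p = 0.0484). The glycerol kinase gene GK had 235 and 222 EV counts against 281 and 277 TET1-CD counts (0.30, edgeR adjusted p = 0.0947). Of 4 adipocyte markers, ADIPOQ and LEP were at 0, and FABP4, the single one tested, had 5 and 15 EV counts against 33 and 36 TET1-CD counts (edgeR adjusted p = 0.0271). The remaining adipocyte marker, PLIN1, lay the other way, with 5 and 9 EV counts against 1 and 3 TET1-CD counts, and was not tested. The adipocyte list summed to 0.49 and 1.39 CPM in EV against 1.94 and 1.99 CPM in TET1-CD, and its part in these values was not tested. The astrocyte list had 2 of 4 genes tested and 0 called, and it summed to 3.59 to 4.85 CPM over the libraries.

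**Figure D5:**
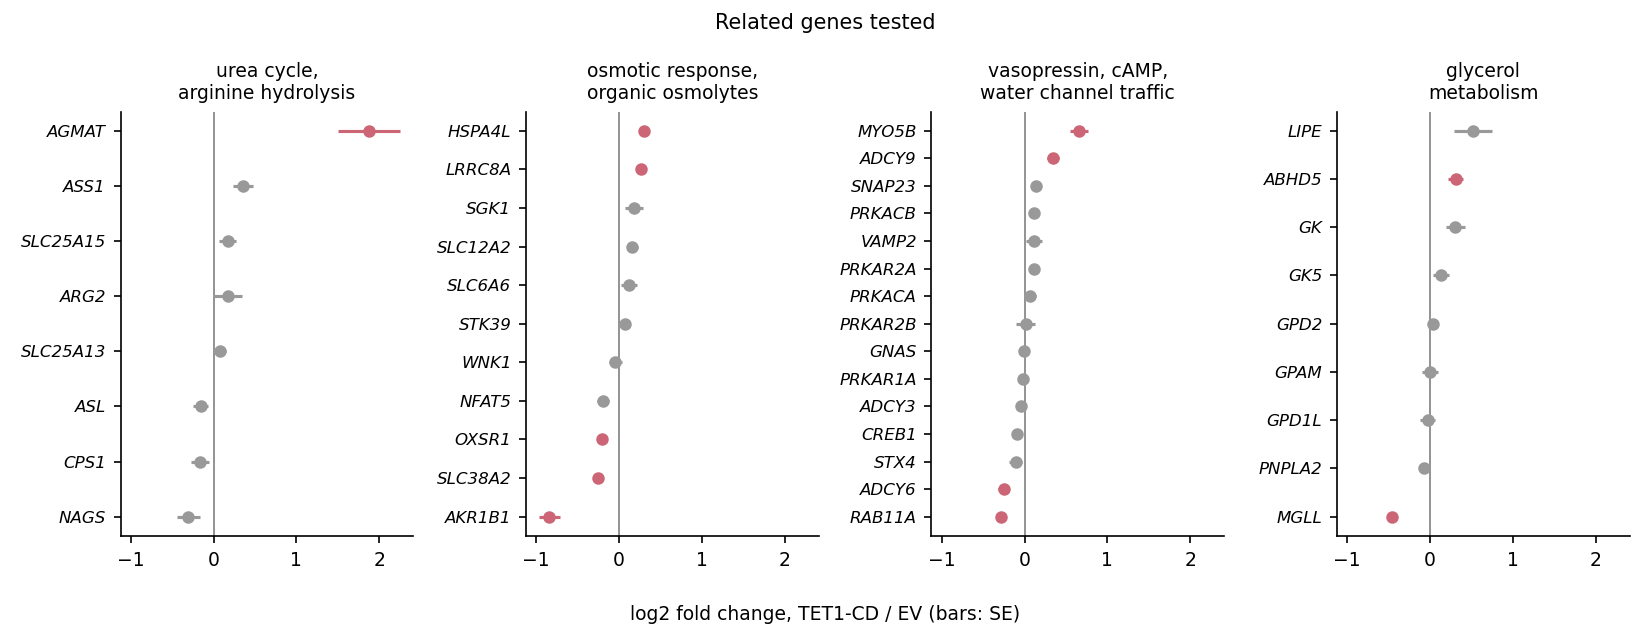
Log2 fold change between TET1-CD and EV cells, with standard error bars, for the tested genes of the 4 related lists other than SLC5A3, with genes at an adjusted p under 0.05 by edgeR in red and the others in grey. AGMAT at 1.88 lies farthest to the right and AKR1B1, lower by 0.84 on the log2 scale, farthest to the left.

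Of the 12 related genes called, AKR1B1, MGLL and MYO5B kept their call in all 11 alternatives. DESeq2 did not call OXSR1, ADCY6 and ABHD5, and 0 of the 12 genes changed direction in any alternative. With TET1-CD replicate 1 or 2 left out, 4 related genes in all were called in each case, and 20 were called without EV replicate 2. Across the lists the share called was 12 of the 45 rows tested, to be read against the 10.0% and 9.61% of all genes tested that were called higher and lower.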

How the data were processed

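T24 RNAseq libraries, 2 EV and 2 TET1-CD, were grouped and numbered by their titles. Per the labels, RNA was extracted with Trizol and sequenced after poly(A) isolation or rRNA removal. The submitters' processing notes name cutadapt 1.9.1, HISAT2 2.0.1, HTSeq 0.6.1, DESeq2 and hg19 without a role, and the quantifier, its strand setting and the annotation release are not given in the sources used here. The authors deposited expected counts (estimated counts that need not be whole) and FPKM values per transcript. Counts were summed per gene identifier and rounded, which makes genes that share reads depend on the authors' division of them.

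Counts were tested with edgeR 4.0.16 in R 4.3.3 (glmQLFit and glmQLFTest, TMM, filterByExpr, Benjamini-Hochberg adjustment over 14573 genes), and the script was tested on simulated data. Standard errors (SE) were derived from each log2 fold change and its quasi-likelihood F. The filter amounts to 9.42 to 10.96 counts in at least 2 libraries. DESeq2 1.42.0, limma 3.58.1 (voom), other scalings and filters, a replicate block, unadjusted p, FPKM ratios, single transcripts and each library left out were the alternatives. RefSeq windows were read on GRCh38.p14, wider regions on GRCh37, and transcript models from GENCODE release 44.

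The genes and lists were chosen with earlier results of these data known. Named genes are TET1, the 8 genes, the SLC14A1 transcripts, its tested neighbours within 1000000 bases, its 5 nearest patterns, copies of the 8 genes, and from each list up to 4 genes with adjusted p under 0.05 by smallest p (any gene for lists under 12), besides the cell type markers. A floor of 3 counts per library was set in place of a count of 0. The values of a single solute carrier gene are not reported here.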

Additional observations from a re-analysis of the deposited data

How the results depend on the processing

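The bound on SLC14A1 against the floor of 3 counts stayed at 4.46 on the log2 scale under DESeq2's and RLE size factors and without a filter. It was 3.96 for ENST00000321925 counted singly, which holds part of the gene's counts. With each library left out in turn it ran from 4.35 to 4.58. A filter of 10 counts in every library removes SLC14A1, a ratio of FPKM has no value against a group listed at 0, and limma-voom's fitted value is no bound, so none of these gave one. For AQP11, leaving out EV replicate 1 reversed the small log2 fold change to -0.20, and AQP3 kept its direction in all alternatives that could be fitted. With a fold change of 2, edgeR called 549 genes, DESeq2 384, and a filter of 10 counts in every library left 332. Without the fold threshold edgeR called 2865 genes and DESeq2 1739. With each library left out the counts ran from 323 to 617 and from 832 to 3779, the lowest without TET1-CD replicate 1. Without TET1-CD replicate 2 they were 359 and 1014. The related genes called numbered 12, and 4 to 20 with each library left out. The counts fell without a TET1-CD library, and without an EV library they rose or, for the related genes without EV replicate 1, were 11. The cause of these moves was not tested. Replicate numbers are shared between the groups, but nothing states what they stand for. The deviations of same-numbered libraries had a correlation of 0.0071 over 14573 genes. With the replicate block edgeR called 568 genes with a fold change of 2, 3235 without it and 13 related genes, and the bound on SLC14A1 was 4.46. Depth limits the 5 genes at or under 3 counts, for which a small difference could not be detected.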

Other observations

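Of the solute carrier genes listed, 217 of 368 were tested by edgeR, and at an adjusted p under 0.05 and a fold change of 2, 5 rose and 2 fell in the TET1-CD libraries, where 2.72% of all genes tested rose and 1.04% fell. At an adjusted p under 0.05 alone 26 were higher and 33 lower, against 10.0% and 9.61% of all genes tested. This family was looked at after its values were seen, and the symbols include SLC9A3R2, a scaffold protein gene rather than a carrier. SLC14A1 was the single one of the 217 at 0 in both EV libraries, which is a description, as it was chosen on this contrast. SLC38A5, a glutamine transporter gene, had 5 and 5 EV counts against 87 and 124 TET1-CD counts. SLC38A4, of the same family, had 19 and 6 EV counts against 40 and 50 TET1-CD counts, and SLC35F3 had 4 and 4 in EV against 30 and 17 in TET1-CD. SLC2A12, a glucose transporter gene, had 21 and 38 EV counts against 3 and 11 TET1-CD counts. Over the 217 genes the median log2 fold change was 0.009.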
